A study of Mus musculus with 9 samples.

Results

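The genes described here serve the contact between cumulus cells and the oocyte and the cyclic GMP signal that holds the oocyte in meiotic arrest. They are the connexin genes Gja1, Gja4 and Gjc1, the natriuretic peptide receptor gene Npr2 and its ligand gene Nppc, the phosphodiesterase genes Pde5a and Pde10a, the guanine nucleotide synthesis gene Impdh2, and the KIT ligand gene Kitl. These 9 genes were taken by symbol from a matrix of 54838 mouse genes, and all 9 were present. RNA had been sequenced from corona radiata samples, labelled as granulosa, of adult mice stimulated with PMSG and then hCG. PMSG drives follicle growth and hCG acts as the ovulatory signal, and the labels add an unexplained term, J4, to this treatment. The 9 libraries comprised 3 of wild type (WT), 3 of mice lacking both liver X receptors (LXR DKO), and 3 of LXR DKO mice carrying the transgene TG-AMH-LXRb (transgenic). The transgenic mice thus share both receptor deletions with the LXR DKO mice. The labels describe neither the promoter of the transgene nor the deleted parts of the receptor genes, and do not say whether the libraries of a genotype came from separate animals. The p-values therefore cover the spread of these libraries alone, and that spread may be technical in part.

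Cumulus cells reach the oocyte through fine projections that end in gap junctions, channels built from connexins. C-type natriuretic peptide, the product of Nppc, comes mainly from mural granulosa cells and activates the guanylyl cyclase NPR2 on cumulus cells. The cyclic GMP made there passes through gap junctions into the oocyte, where it inhibits the cyclic AMP phosphodiesterase PDE3A and so keeps meiosis arrested. The ovulatory hormone lowers this supply by reducing NPR2 activity, NPPC and junctional coupling. The connexin of Gja1 joins granulosa cells to each other, and that of Gja4 forms the channels at the oocyte surface. KIT ligand is a granulosa signal to the KIT receptor of the oocyte.

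Values are RPKM, reads per kilobase of exon scaled to library size. Reads worked back from these values, over genes whose exon length was matched, numbered 29822412 to 44049966 per library. Genes with 1 RPKM or more in 3 or more libraries were tested, 16422 in all. The members tested were Gja1, Npr2, Pde5a, Pde10a, Impdh2 and Kitl, and 3 (Gja4, Gjc1 and Nppc) were too low. Differences are on the log2(RPKM + 1) scale with their standard error (SE), from limma fitted to all 9 libraries. Adjusted p-values are by Benjamini-Hochberg over the 16422 genes, with a threshold of 0.05. The added 1 makes such a difference smaller than the true change in genes of low RPKM. Group values are means ± SD with n = 3 libraries.

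The targeted genes were lower in both knockout genotypes than in WT. Nr1h2 (LXR beta) had 39.7 to 45.7 RPKM over WT libraries, 2.85 to 3.57 over LXR DKO and 4.83 to 6.70 over transgenic libraries. Nr1h3 (LXR alpha) had 3.50 to 5.72, 0.713 to 1.08 and 0.395 to 0.819 RPKM in the same order. In transgenic libraries, labelled with an LXRb transgene, Nr1h2 thus lay above LXR DKO but far below WT. The libraries differed in the other cells they held. Summed over 20 oocyte markers, WT 1 held 1294 RPKM and LXR DKO 1 held 858, while the other 7 held 20.02 to 126. The sum was lowest in LXR DKO 3, WT 2 and WT 3, at 20.02, 21.8 and 25.9 RPKM. There 1 marker, Tle6, gave 14.9, 18.9 and 21.3 RPKM of it, so the low sums mostly reflect that gene. The oocyte gene Gdf9 measured 126 RPKM in WT 1, 136 in LXR DKO 1, 3.69, 10.9 and 6.89 in transgenic 1 to 3, 2.97 in LXR DKO 2, and 0.505 to 0.756 in the remaining 3 libraries. Other oocyte markers differed between WT 1 and LXR DKO 1, so their oocyte RNA was not alike in make-up. Zp3 measured 108 and 2.90 RPKM in these libraries and Padi6 137 and 14.0, whereas Bcl2l10 measured 113 and 200 and Oas1d 70.0 and 107. WT 3 stood apart by red cell RNA (7 markers summing to 9881 RPKM against 58.6 to 971 elsewhere) and, among WT, by oviduct epithelium RNA (10 markers summing to 2067 RPKM against 446 and 394 in WT 1 and WT 2). The oviduct sum was 588 to 1090.5 RPKM in LXR DKO and 1835 to 2467 RPKM in transgenic libraries. Of 12 granulosa and cumulus markers, at least 10 reached an RPKM of 1 in every library, so the labelled cell type was present throughout. The sum of these 12 spanned 933 to 1128 RPKM over WT, 432 to 642 RPKM over LXR DKO and 477 to 612 RPKM over transgenic libraries. Few genes dominated it: the WT and LXR DKO means were 388 and 103 RPKM for Tnfaip6, 295 and 199 for Inha, 154 and 84.1 for Inhba, and 127 and 75.0 for Fst. Fshr and Nr5a2 were higher in LXR DKO (0.23 and 0.28) and Foxl2 and Amhr2 lower (-0.50 and -0.35), none past the threshold. The sum is thus not a measure of cell number alone. In bulk RNA, fewer cells of a type and less RNA per cell cannot be told apart.

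**Figure D1:**
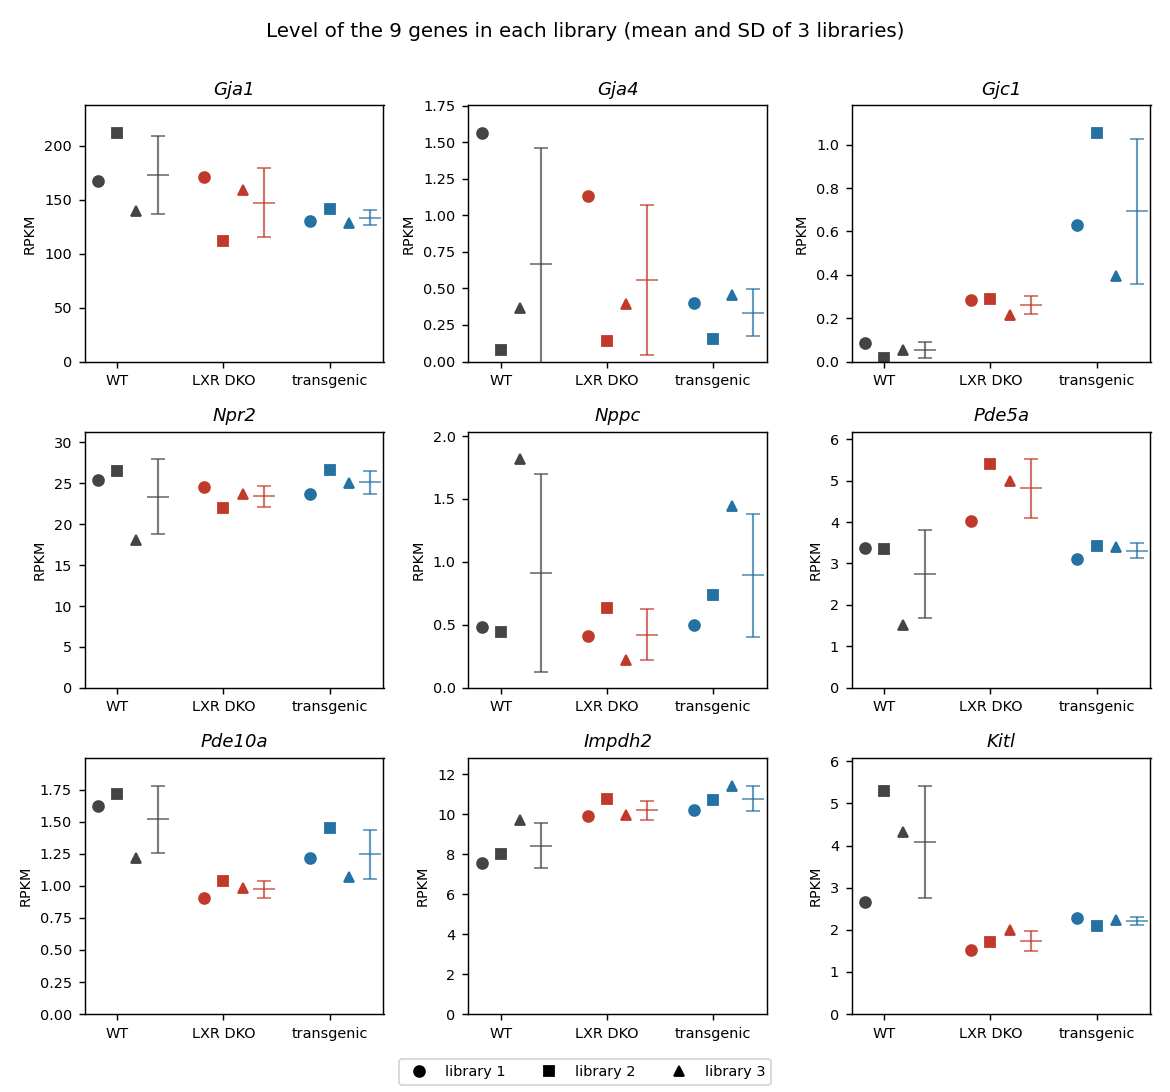
RPKM (y axis, linear from 0) of each of the 9 genes in the 3 WT, 3 LXR DKO and 3 transgenic libraries. Points are single libraries, with the marker shape giving the library number, and the bar beside them is the mean and SD, drawn only above 0. Kitl in LXR DKO (1.51 to 1.99) and transgenic libraries (2.101 to 2.29) lies below every WT library (2.65 to 5.30), Gjc1 lies in a separate range in each genotype, and Gja4 is highest in WT 1 and LXR DKO 1.

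Per exon length, the members spanned a wide range of levels. Gja1 was the most abundant at a mean of 151 RPKM over the 9 libraries, followed by Npr2 at 24.0, Impdh2 at 9.80, Pde5a at 3.62, Kitl at 2.68, Pde10a at 1.25, Nppc at 0.742, Gja4 at 0.520 and Gjc1 at 0.336. The ranges of Gja1, Npr2 and Impdh2 did not overlap with each other. Those of Pde5a (1.52 to 5.40) and Kitl (1.51 to 5.30) did, and that of Pde10a (0.906 to 1.72) overlapped with both. Those of Nppc, Gja4 and Gjc1 overlapped as well. Npr2 varied least, with a ratio of 1.47 between its highest and lowest library, and Gjc1 most, with a ratio of 65.1. Impdh2 followed Npr2 with a ratio of 1.51, and Gja1 and Pde10a had ratios of 1.90 and 1.89. The 3 genes below the filter, Nppc, Gja4 and Gjc1, had the widest ratios, 8.16, 19.5 and 65.1.

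The sequences before the start sites of Gja1 and Gja4 are shown because these genes encode the connexins of the granulosa network and of the oocyte surface, and their RNA was distributed differently over the libraries. Each is the 250 bases before the RefSeq start (build GRCm38.p6), written 5′ to 3′ on the gene's strand. Capitals mark the matches found: AP-1 (TGAGTCA) in Gja1 and a GC box (GGGCGG) in Gja4. The window of Gja1 is chr10:56377050-56377299 on the plus strand, and that of Gja4 is chr4:127314040-127314289 on the minus strand. Neither overlaps a GENCODE exon.
Gja1: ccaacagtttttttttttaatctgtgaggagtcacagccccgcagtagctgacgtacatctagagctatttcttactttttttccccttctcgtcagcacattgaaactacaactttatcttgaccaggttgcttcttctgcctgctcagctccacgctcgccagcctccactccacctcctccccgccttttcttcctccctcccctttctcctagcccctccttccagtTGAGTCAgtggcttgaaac
Gja4: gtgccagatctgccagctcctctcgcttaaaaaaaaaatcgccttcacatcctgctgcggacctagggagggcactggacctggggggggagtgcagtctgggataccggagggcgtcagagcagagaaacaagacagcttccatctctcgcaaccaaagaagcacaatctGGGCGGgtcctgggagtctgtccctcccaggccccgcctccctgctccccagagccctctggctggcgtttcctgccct

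The same window was available for 8 of the 9 members (9 entries, since Pde10a has more than 1 start). It was searched on both strands for AGGTCA (the hexamer of nuclear receptors such as LXR), the paired LXR element (the same hexamer repeated in 1 direction after any 4 bases, so that each match also holds AGGTCA), TGACGTCA (cyclic AMP response element), TGAGTCA (the AP-1 site), GGGCGG (the GC box) and TATAAA (the TATA box). AGGTCA, its paired form and TGACGTCA were found in none of the 8, against 14.0%, 0.0152% and 1.55% of all 32851 promoters. TGAGTCA was found only in Gja1 (4.46% of promoters), from 19 to 13 bases before the start. GGGCGG was found in Nppc, Pde5a, Gja4, Impdh2, Kitl and Pde10a (32.7% of promoters). TATAAA was found in Kitl, from 25 to 20 bases before the start, and in Nppc, from 29 to 24 (12.4% of promoters). The 30 bases around these TATA matches are shown because Kitl is the member that passed the test below, with the match in capitals.
Kitl: ggagggagctgTATAAAaagcgctggcggc
Nppc: gcaggttggatTATAAAggctccagcggag
These matches describe the letters in a short window and carry no information on binding in these samples.

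Of the 6 tested members, 1 passed in LXR DKO minus WT, Kitl, which was lower, where 10.6% of all genes passed, 7.12% lower and 3.47% higher. An unadjusted p under 0.05 was reached by 4 of 6 (Pde5a, Pde10a, Impdh2 and Kitl) against 26.5% of all genes, and the same 4 did not overlap between the groups, against 28.9% of all genes. In transgenic minus LXR DKO 0 of 6 passed, where 0.116% of genes passed, 0.0548% higher and 0.0609% lower. There 0 had an unadjusted p under 0.05 in limma (8.10% of all genes) and 3 (Pde5a, Pde10a and Kitl) did not overlap (18.3%). In transgenic minus WT 0 of 6 passed, where 11.9% of genes passed, 5.15% higher and 6.72% lower. There 2 (Impdh2 and Kitl) had an unadjusted p under 0.05 in limma (30.4%), and the same 2 did not overlap (35.7%). The median differences of the 6 were -0.11, 0.09 and -0.02, against 0.02, 0.01 and 0.01 over all genes. The comparisons share libraries and are not independent of each other.

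Kitl (ENSMUSG00000019966, mm10 chromosome 10, 100015630 to 100100416, plus strand) was the 1 tested member that differed past the threshold in any comparison, and it was lower in LXR DKO than in WT. It measured 2.65, 5.30 and 4.32 RPKM across WT 1 to 3, 1.51, 1.71 and 1.99 across LXR DKO 1 to 3, and 2.29, 2.101 and 2.24 across transgenic 1 to 3, from 339 to 1201 reads per library. Every WT library lay above every library of the other genotypes, and the transgenic libraries lay between the WT and LXR DKO ranges. The fall from 4.09 ± 1.34 to 1.74 ± 0.240 RPKM in LXR DKO was -0.86 ± 0.19 (SE; limma adjusted p = 0.0224). In transgenic libraries the mean of 2.21 ± 0.0999 RPKM was 0.541 of the WT mean, a difference of -0.63 ± 0.19 that did not pass (adjusted p = 0.0600). Transgenic minus LXR DKO was 0.23 ± 0.19 (95% interval -0.19 to 0.65, adjusted p = 0.798), although the libraries did not overlap.

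The call of Kitl was lost without WT 2 (-0.69, adjusted p = 0.0564), without LXR DKO 1 (-0.80, 0.0508), without LXR DKO 2 (-0.86, 0.0697) or without LXR DKO 3 (-0.93, 0.0613), and with only the 2 genotypes compared (0.0734) or no filter (0.0641). It was kept without WT 1, WT 3 or any 1 transgenic library. Without WT 1 and LXR DKO 1, the libraries rich in oocyte RNA, the difference was -1.02 (adjusted p = 0.0124), and transgenic minus WT then passed too (-0.85, adjusted p = 0.0144, and 0.0128 when only WT 1 was left out). Markers of granulosa and cumulus cells also differed between LXR DKO and WT. Of 11 tested, 4 fell and 1 rose past the threshold in LXR DKO, with a median difference of -0.59 against 0.02 over all genes tested. Of the 11 differences, 3 were positive. The correlation of Kitl with their mean log2 level was r = 0.531 over the 9 libraries. Within WT, that level was highest in WT 1 (4.29), where Kitl was lowest. The part of these markers in the result was not tested. Those that fell were the activin subunit gene Inhba, the follistatin gene Fst and the cumulus matrix genes Tnfaip6 and Ptx3, while Slc38a3, an amino acid transporter gene of cumulus cells, rose.

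The receptor gene Kit measured 4.10, 0.358 and 1.15 RPKM across WT 1 to 3, 1.84, 1.84 and 1.47 across LXR DKO 1 to 3, and 3.15, 2.95 and 3.35 across transgenic 1 to 3. It was highest in the oocyte-rich WT 1 and lowest in WT 2, where Kitl was highest. In LXR DKO 1, also oocyte-rich and the library with the lowest Kitl, Kit was no higher than in LXR DKO 2 and below all transgenic libraries. Transgenic libraries lay above all LXR DKO libraries, but the difference of 0.61 ± 0.39 did not pass (limma adjusted p = 0.751).

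**Figure D2:**
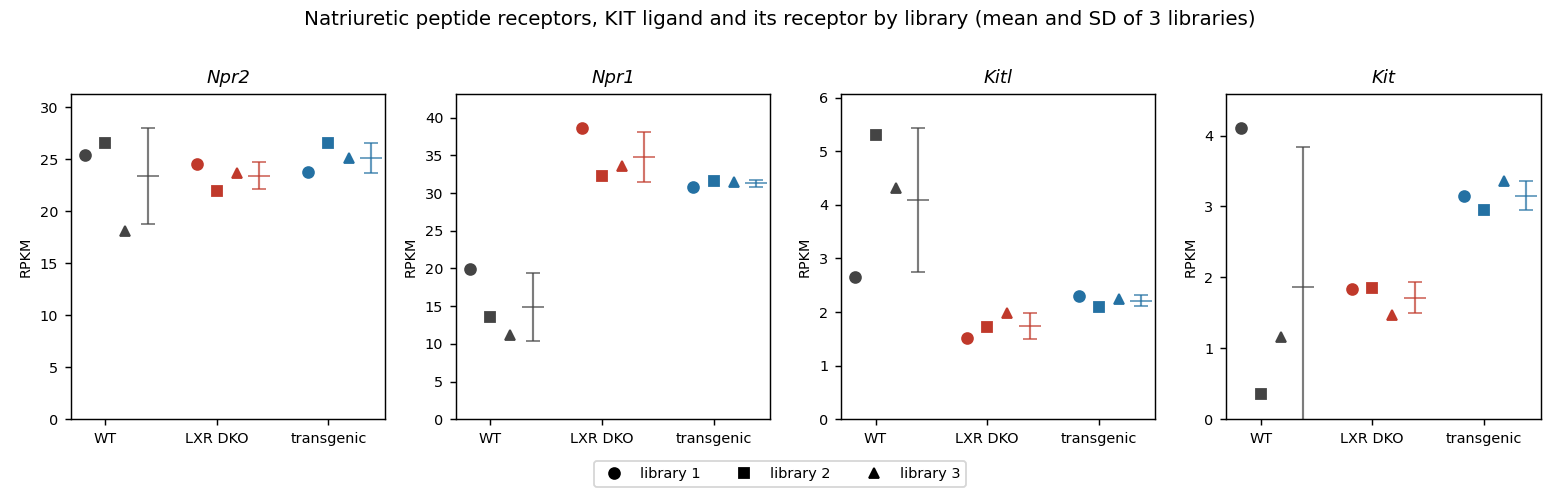
RPKM (y axis, linear from 0) of the natriuretic peptide receptor genes Npr2 and Npr1, of Kitl and of its receptor gene Kit in each library of the 3 genotypes. Points are libraries and bars are mean and SD, drawn only above 0. Npr2 stays between 18.1 and 26.6 RPKM, whereas Npr1 rises from 11.2 to 19.9 RPKM in WT to 30.7 to 38.6 RPKM in the other genotypes.

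Npr2 (ENSMUSG00000028469, chromosome 4, 43631935 to 43651244, plus strand), the receptor that makes cyclic GMP in cumulus cells, did not differ past the threshold between any genotypes. It measured 25.4, 26.6 and 18.1 RPKM across WT 1 to 3, 24.5, 21.98 and 23.7 across LXR DKO 1 to 3, and 23.7, 26.6 and 25.1 across transgenic 1 to 3. The groups overlapped, and the lowest value came from WT 3, the library with much red cell and oviduct RNA. Over the 9 libraries Npr2 had r = -0.881 with the red cell markers, and their part in the result was not tested. LXR DKO minus WT was 0.02 ± 0.13 (95% interval -0.29 to 0.33, limma adjusted p = 0.949). Transgenic minus LXR DKO was 0.10 (interval -0.21 to 0.41), and transgenic minus WT 0.12 (interval -0.19 to 0.42). Without WT 3 the first turned to -0.15 (adjusted p = 0.282) and the last to -0.047 (0.727). An antisense gene, Gm12473, covers 5.7% of the exon bases of Npr2, and its reads cannot be told apart where the counting ignored strand.

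Npr1, whose product is the receptor for atrial and B-type natriuretic peptides and also forms cyclic GMP, rose in both knockout genotypes. It is not a member but stood in the list of natriuretic peptide and guanylyl cyclase genes. It measured 19.9, 13.5 and 11.2 RPKM across WT 1 to 3, 38.6, 32.2 and 33.5 across LXR DKO 1 to 3, and 30.7, 31.6 and 31.5 across transgenic 1 to 3. No WT library reached the level of any knockout library. The rise was 1.21 ± 0.17 in LXR DKO (limma adjusted p = 0.00479) and 1.06 ± 0.17 in transgenic libraries (adjusted p = 0.00873), and transgenic minus LXR DKO was -0.14 ± 0.17 (adjusted p = 0.884). Both rises passed under all 20 alternative settings (1.03 to 1.42 in LXR DKO, largest adjusted p 0.0270, and 0.89 to 1.28 in transgenic libraries, largest adjusted p 0.0381). Of 11 tested granulosa and cumulus markers, 4 fell and 1 rose in LXR DKO against WT. In transgenic against WT libraries 5 fell and 1 rose. The part of these markers in the rise of Npr1 was not tested. Per exon length Npr1 was below Npr2 in every WT library, at 0.508 to 0.785 of its level, and above it in every knockout library, at 1.42 to 1.57 times in LXR DKO and 1.19 to 1.29 times in transgenic libraries. The antisense gene Gm16048 covers 11.7% of the exon bases of Npr1.

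Nppc (ENSMUSG00000026241, chromosome 1, 86666291 to 86670571, minus strand), the ligand gene, was near the lower end of detection. It measured 0.480, 0.441 and 1.82 RPKM across WT 1 to 3, 0.412, 0.631 and 0.223 across LXR DKO 1 to 3, and 0.497, 0.741 and 1.44 across transgenic 1 to 3, from 8 to 89 reads. WT 3 and transgenic 3 were the highest and LXR DKO 3 the lowest, and all 3 groups overlapped. With 3 against 3 libraries an exact two-sided permutation test cannot go below p = 0.1, and it gave 0.4 for LXR DKO minus WT, 0.2 for transgenic minus LXR DKO and 0.8 for transgenic minus WT. Over the 9 libraries Nppc followed the mean log2 level of the oviduct markers (Pearson r = 0.702) and the red cell markers (0.697) more than the granulosa markers (-0.122). These are descriptions over libraries that share genotypes and depth.

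Ligands other than Nppc were almost absent. Nppa and Nppb had no more than 0.0611 RPKM in any library, and Npr3, the clearance receptor gene, lay between 0.113 and 0.386 RPKM. Of the 16 genes in the list of natriuretic peptides and guanylyl cyclases, 3 were tested (Npr1, Furin and Gucy2g). In LXR DKO 1 rose and 2 did not pass, with a median of 0.09, and in transgenic against WT 1 rose and 2 did not pass, with a median of 0.06. The medians over all genes tested were 0.02 and 0.01. None of the 3 passed between transgenic and LXR DKO.

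Gja1 (ENSMUSG00000050953, chromosome 10, 56377330 to 56402513, plus strand) measured 168, 212 and 140 RPKM across WT 1 to 3, 171, 111 and 159 across LXR DKO 1 to 3, and 130, 141 and 129 across transgenic 1 to 3. WT 2 was the highest library and LXR DKO 2 the lowest, and the groups overlapped in every pair of genotypes. The means were 173 ± 36.3, 147 ± 31.7 and 133 ± 6.93 RPKM. LXR DKO minus WT was -0.24 ± 0.19 (95% interval -0.66 to 0.19, limma adjusted p = 0.474), and transgenic minus WT was -0.35 ± 0.19 (interval -0.78 to 0.07, adjusted p = 0.234). Transgenic minus LXR DKO was -0.12 ± 0.19 (adjusted p = 0.916). It was 0.0016 without LXR DKO 1, with or without WT 1. The spread within WT and LXR DKO is wide enough that a loss of up to 0.66 on the log2 scale in LXR DKO lies within the interval. Over the 9 libraries Gja1 had r = 0.746 with the granulosa markers, -0.801 with smooth muscle, -0.787 with theca and stroma and -0.780 with oviduct markers, and their part in these values was not tested.

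Gja4 (ENSMUSG00000050234, chromosome 4, 127311421 to 127314039, minus strand), the oocyte-side connexin gene, was highest in the 2 libraries rich in oocyte RNA. It measured 1.56, 0.0802 and 0.366 RPKM across WT 1 to 3, 1.13, 0.142 and 0.396 across LXR DKO 1 to 3, and 0.397, 0.153 and 0.455 across transgenic 1 to 3. WT 1 held 116 reads and LXR DKO 1 held 80, whereas the other 7 libraries held 5 to 31. The genotypes overlapped. Across the 9 libraries the correlation with the mean log2 level of the oocyte markers was r = 0.888 for Gja4 and 0.211 for Gja1, a description in which these 2 libraries stand apart from the other 7. With the endothelial markers Gja4 had r = 0.535, and LXR DKO 1 had the highest sum of these (5.97 RPKM). The part of either cell type in the Gja4 values was not tested. Transgenic 2, the next in oocyte marker sum, held only 8 Gja4 reads. The exact two-sided permutation p was 1 for LXR DKO minus WT and 0.9 for each comparison with transgenic libraries.

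**Figure D3:**
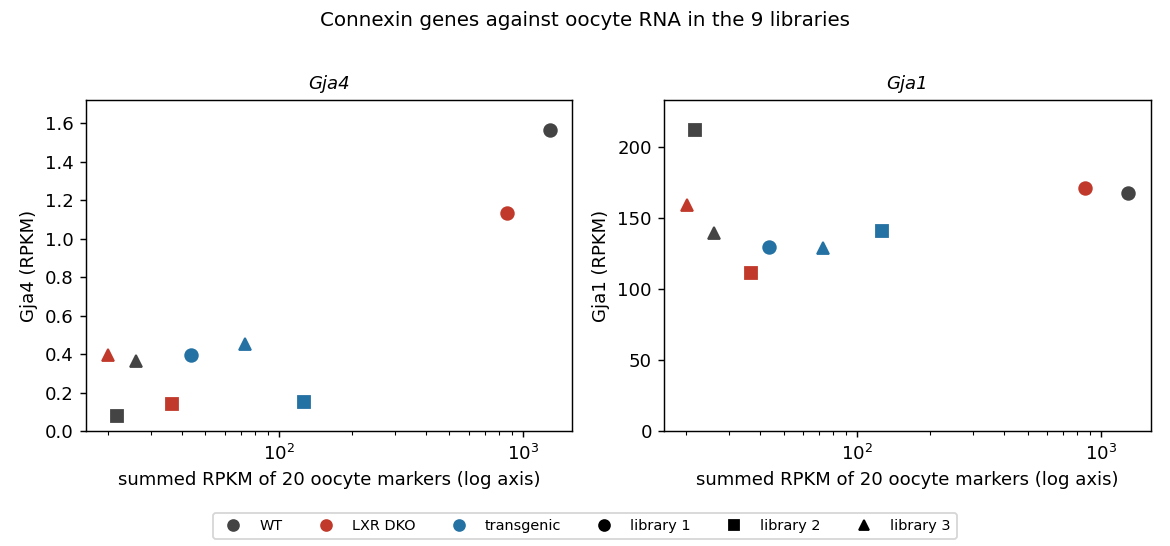
RPKM of Gja4 (left) and Gja1 (right) on linear y axes from 0, against the summed RPKM of 20 oocyte markers on a log x axis, with 1 point per library (colour for genotype, shape for library number). The 2 libraries with 858 and 1294 RPKM of oocyte markers have the highest Gja4 (1.13 and 1.56 RPKM), while their Gja1 (171 and 168 RPKM) lies among the other libraries. In those other libraries the marker Tle6 alone gives 11.6 to 21.3 RPKM of the sum.

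Gjc1 (ENSMUSG00000034520, chromosome 11, 102799579 to 102819700, minus strand), a connexin gene expressed in several tissues, was low but lay in separate ranges in the 3 genotypes. It measured 0.0863, 0.0162 and 0.0552 RPKM across WT 1 to 3, 0.286, 0.287 and 0.214 across LXR DKO 1 to 3, and 0.630, 1.05 and 0.395 across transgenic 1 to 3. These stand for 19, 3 and 13 reads, 60, 48 and 37 reads, and 146, 164 and 67 reads. WT 2 sat at the 3 reads that mark the lower limit of detection. The mean in LXR DKO was 4.99 times and that in transgenic libraries 13.2 times the WT mean. Below the RPKM filter Gjc1 had no test in the fit described above. Groups that do not overlap were found in 25% of the 21915 genes with at least 10 reads in at least 3 libraries for LXR DKO minus WT, 18.4% for transgenic minus LXR DKO and 31.4% for transgenic minus WT, and the exact permutation p was 0.1 in each comparison, the smallest that 3 against 3 can give. A fit on the whole reads worked back (limma voom over the same 21915 genes), chosen after seeing the data, gave 3.74 ± 0.67 for transgenic minus WT (adjusted p = 0.0178), where 6.70% of genes passed. It gave 2.46 ± 0.71 for LXR DKO minus WT (adjusted p = 0.0788, 5.90% of genes passing) and 1.28 ± 0.41 for transgenic minus LXR DKO (adjusted p = 0.55, 0.0730% passing). In transgenic minus WT, 1 of 9 tested oviduct markers rose (the cadherin gene Cdh1) and 4 of 9 tested macrophage markers fell. Gjc1 had r = 0.518 and -0.766 with these lists over the 9 libraries. WT 3, with an oviduct sum of 2067 RPKM, held 0.0552 RPKM of Gjc1, a value of 1 library and 13 reads. The part of the oviduct and macrophage RNA in the result was not tested.

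No other connexin was abundant. Of 20 further connexin and pannexin genes, 1 was tested, the pannexin gene Panx1, at 6.87 to 7.40 RPKM across WT, 5.31 to 6.999 across LXR DKO and 5.40 to 5.49 across transgenic libraries. It did not pass in any comparison (limma, -0.25, -0.09 and -0.34, lowest adjusted p = 0.0679). Among the low ones, Gja5 was 0.281 to 0.326 RPKM in WT and at most 0.0769 RPKM in every knockout library, a gene singled out after its values were seen.

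Of 11 genes of cumulus-oocyte adhesion and projections, all 11 were tested. In LXR DKO the median difference was 0.18 against 0.02 over all genes. Ctnnb1, which encodes the catenin that links cadherins to the cytoskeleton and carries WNT signals, rose from 88.2 ± 6.13 to 123 ± 17.6 RPKM (0.47 ± 0.11, limma adjusted p = 0.0312). This call was lost under 12 of 20 alternatives, among them leaving out any library but LXR DKO 1 (largest adjusted p 0.109).

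In transgenic against WT libraries, 2 of the 11 rose, 0 fell and 9 did not pass (median 0.13 against 0.01). Ctnnb1 reached 132 ± 5.23 RPKM (0.58 ± 0.11, limma adjusted p = 0.0156; lost without transgenic 1 or transgenic 3, up to 0.0619). The epithelial cadherin gene Cdh1 rose from 8.96 ± 7.73 to 27.0 ± 3.16 RPKM (1.80 ± 0.49, adjusted p = 0.0466), a call that held under only 4 of 20 alternatives. Cdh1 is also among the oviduct epithelium markers, and it was the only 1 of the 9 tested that passed in this comparison. All 9 differences were positive, with a median of 1.47 that includes Cdh1. The oviduct sum of WT 3 (2067 RPKM) nevertheless lay above that of transgenic 1 (1835 RPKM). The part of oviduct RNA in the result was not tested. The cadherin gene Cdh2 of granulosa cells lay between 19.9 and 29.1 RPKM in every library and did not pass in any comparison. Between transgenic and LXR DKO none of the 11 passed (median 0.11 against 0.01).

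Pde5a (ENSMUSG00000053965, chromosome 3, 122728947 to 122859374, plus strand), which encodes a phosphodiesterase specific for cyclic GMP, was highest in LXR DKO. It measured 3.36, 3.36 and 1.52 RPKM across WT 1 to 3, 4.03, 5.40 and 5.0 across LXR DKO 1 to 3, and 3.11, 3.42 and 3.40 across transgenic 1 to 3. Every LXR DKO library lay above every other library, and WT 3 was the lowest. LXR DKO minus WT was 0.67 ± 0.21 (2.75 ± 1.06 to 4.81 ± 0.705 RPKM, limma adjusted p = 0.0757), transgenic minus LXR DKO was -0.42 ± 0.21 (adjusted p = 0.655) and transgenic minus WT 0.25 ± 0.21 (adjusted p = 0.456), and none passed. Without WT 3 these were 0.41 (adjusted p = 0.0632), -0.42 (0.114) and -0.017 (0.933), so that the difference between transgenic and WT libraries turned sign.

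Pde10a (ENSMUSG00000023868, chromosome 17, 8525372 to 8986648, plus strand), whose enzyme hydrolyses cyclic AMP and cyclic GMP, had the opposite order. It measured 1.62, 1.72 and 1.22 RPKM across WT 1 to 3, 0.906, 1.04 and 0.979 across LXR DKO 1 to 3, and 1.22, 1.45 and 1.07 across transgenic 1 to 3. The LXR DKO libraries lay below all others, while WT and transgenic overlapped. LXR DKO minus WT was -0.35 ± 0.12 (1.52 ± 0.264 to 0.974 ± 0.0660 RPKM, limma adjusted p = 0.117). With voom on whole reads, 434 to 916 per library, it was -0.63 (adjusted p = 0.0379) and passed, and with voom over 21915 genes the adjusted p was 0.05005, just above the threshold. Without WT 1 and LXR DKO 1 the difference was -0.29 (adjusted p = 0.307). Pde10a had r = 0.711 with the granulosa markers, and their part in the result was not tested. Transgenic minus LXR DKO was 0.18 ± 0.12 (adjusted p = 0.762) and transgenic minus WT -0.16 ± 0.12 (0.407).

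The oocyte's own phosphodiesterase gene Pde3a was below the filter and marked the same libraries as Gja4, with 1.54 RPKM in WT 1, 1.03 in LXR DKO 1 and at most 0.257 elsewhere. Of 14 further genes of the phosphodiesterase families that act on cyclic GMP, 5 were tested (Pde1a, Pde1b, Pde3b, Pde9a and Pde6d). The list includes subunits without catalytic activity, among them Pde6d, which encodes a prenyl-binding protein. It also holds Pde3a and Pde3b, of the family of PDE3A, the cyclic AMP phosphodiesterase that cyclic GMP inhibits. Its counts and medians are thus not those of hydrolysing enzymes alone, nor a measure of cyclic GMP hydrolysis. None passed in LXR DKO or between transgenic and LXR DKO (medians 0.05 and 0.03, against 0.02 and 0.01 over all genes). In transgenic against WT libraries 2 rose, 1 fell and 2 did not pass (median 0.48 against 0.01), where 5.15% of all genes rose and 6.72% fell. In the same comparison the 9 tested oviduct markers had a median of 1.47 (1 rose, Cdh1) and the 9 tested macrophage markers a median of -1.01 (4 fell), and their part in the result was not tested. Pde3b rose from 1.05 ± 0.235 to 2.02 ± 0.280 RPKM (0.56 ± 0.14, limma adjusted p = 0.0378) and Pde1b from 0.823 ± 0.0807 to 1.54 ± 0.0825 RPKM (0.48 ± 0.12, adjusted p = 0.0404). Pde1a, the other calmodulin-dependent gene, fell from 6.997 ± 0.470 to 4.37 ± 0.246 RPKM (-0.57 ± 0.16, adjusted p = 0.0489). These calls held under 8 and 9 of 19 and 9 of 20 alternatives, and each was lost without WT 1, WT 2 or any transgenic library, those of Pde3b and Pde1b also without LXR DKO 2 and that of Pde1a without LXR DKO 3 (adjusted p up to 0.14). In LXR DKO minus WT, Pde1b differed by 0.46 ± 0.12 (limma adjusted p = 0.05004), just above the threshold. It stayed there under 14 of 19 alternatives and passed under the rest. Pde1a differed by -0.46 ± 0.16 (adjusted p = 0.0998) and Pde3b by 0.05 ± 0.14 (0.876). Between transgenic and LXR DKO, Pde1b differed by 0.03 ± 0.12 (adjusted p = 0.980). None of the 4 tested cyclic AMP-specific phosphodiesterase genes, and none of the 3 tested genes of cyclic GMP kinases and nucleotide export, passed in any comparison. Prkg2, the abundant kinase gene among them, measured 8.34 to 15.0 RPKM.

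**Figure D4:**
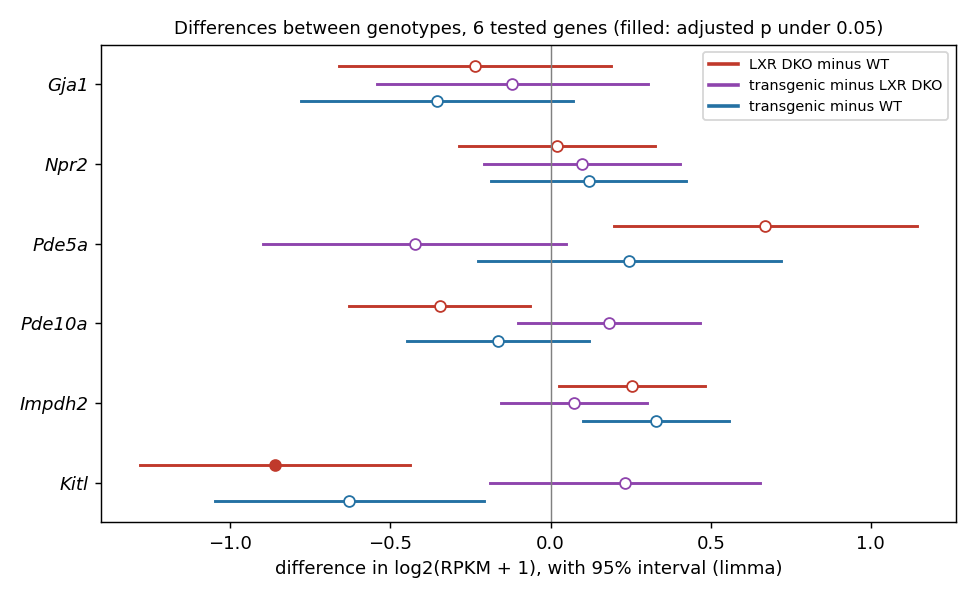
Difference between genotypes in log2(RPKM + 1) (x axis) for the 6 tested members (y axis), with 95% intervals from limma and 1 colour per comparison. A filled point has an adjusted p under 0.05, which only Kitl has, in LXR DKO minus WT. The intervals of Npr2 lie between -0.29 and 0.42 in all 3 comparisons.

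Impdh2 (ENSMUSG00000062867, chromosome 9, 108560286 to 108565584, plus strand) encodes an enzyme that commits inosine monophosphate to guanine nucleotides, the source of GTP for cyclic GMP. It measured 7.55, 8.02 and 9.69 RPKM across WT 1 to 3, 9.90, 10.7 and 9.95 across LXR DKO 1 to 3, and 10.2, 10.7 and 11.4 across transgenic 1 to 3. Every knockout library lay above every WT library. LXR DKO minus WT was 0.25 ± 0.10 (8.42 ± 1.13 to 10.2 ± 0.474 RPKM, limma adjusted p = 0.146) and transgenic minus WT 0.33 ± 0.10 (to 10.8 ± 0.619 RPKM, adjusted p = 0.0662), neither past the threshold. WT 3 was the WT library nearest to the others, and without it both passed (0.35, adjusted p = 0.0369, and 0.42, adjusted p = 0.0118). Over the 9 libraries Impdh2 had r = 0.818 with the oviduct markers and -0.855 with the granulosa markers, and their part in the result was not tested. The granulosa sum was lower in every knockout library than in any WT library. The oviduct sums of LXR DKO (588 to 1090.5 RPKM) lay within those of WT (394 to 2067 RPKM). Transgenic minus LXR DKO was 0.07 ± 0.10 (95% interval -0.15 to 0.30, adjusted p = 0.896).

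The related gene Impdh1 was more abundant per exon length, at 25.3 to 30.3 RPKM across WT, 30.8 to 32.8 across LXR DKO and 30.1 to 34.0 across transgenic libraries, and did not pass in any comparison. Of 16 further genes of purine and guanine nucleotide synthesis, all 16 were tested. None passed in LXR DKO (12 of 16 positive, median 0.09 against 0.02 over all genes) or between transgenic and LXR DKO (median 0.02 against 0.01). In transgenic against WT libraries 1 fell, 0 rose and 15 did not pass, with 14 of 16 positive and a median of 0.14 against 0.01. The share of positive differences over all genes was not counted, so these counts of positive genes are descriptions only. The gene that fell was Adssl1, which acts on the adenine branch, from 6.85 ± 1.19 to 4.04 ± 0.491 RPKM (-0.63 ± 0.14, limma adjusted p = 0.0232; lost without WT 2, transgenic 1 or transgenic 3 and with no filter, up to 0.0856).

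Of 11 genes of the oocyte's arrest machinery, 8 were tested and none passed in any comparison. Those specific to the oocyte were read mainly in WT 1 and LXR DKO 1: the kinase gene Wee2, which restrains meiotic entry, measured 11.2 and 19.3 RPKM there and at most 2.34 elsewhere. The receptor gene Gpr3, which keeps cyclic AMP high in the oocyte, measured 1.19 and 1.06 RPKM there and at most 0.219 RPKM elsewhere.

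Genes with the most similar levels over the 9 libraries, among tested genes with a mean of at least 5 RPKM, were Srebf2 and Zfand5 for Gja1 (Pearson r = 0.970 and 0.963), Klf10 and Dnaja1 for Kitl (0.947 and 0.946), and 4931406P16Rik and Spsb1 for Npr2 (0.937 and 0.935). For Pde5a they were Trmt61a and Prkd3 (0.960 and 0.956), for Pde10a Gadd45a and Runx1 (0.974 and 0.959), and for Impdh2 Vhl and Kyat1 (0.981 and 0.9748). Each is the highest of many correlations over 9 libraries that share genotypes, and is given as a description.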

How the data were processed

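The authors deposited 1 matrix of RPKM values for 54838 genes, 1 column per library. Columns were assigned by name, those of transgenic libraries by the letters TG and the replicate number, and 0 value columns were unused. Per the submitters' processing notes, the mm10 build, DESeq2 1.2.8, HTSeq 0.5.4p5, HISAT2 2.1.0 and cutadapt were involved, in roles not stated. For strand setting and annotation release: not given in the sources used here. With exon lengths of GENCODE M21, all values were whole reads within 0.02 for 37146 of 37863 detected genes (98.1%), the 9 members included. Because the file held RPKM and no counts, log2(RPKM + 1) was tested with limma 3.58.1 (R 4.3.3) with a mean-variance trend, genotype as the only factor and 16422 genes of at least 1 RPKM in at least 3 libraries. The code was tested on simulated data. The alternatives were 20, of which 1 was added after seeing the data. The members, lists and rules were chosen with earlier results of these data known. Named were all members, up to 4 called genes per list and comparison with the smallest p, and the 2 genes most like each tested member, beside genes said to be singled out or given as background levels. The result of 1 listed gene is not reported here, though counts over all listed genes include it. Marker lists for theca and stroma, endothelium and smooth muscle summed to 1.96 to 11.6, 1.84 to 5.97 and 22.9 to 108 RPKM per library, and macrophage markers to 372 to 1219.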

Additional observations from a re-analysis of the deposited data

How the results depend on the processing

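Over the 6 tested members and 3 comparisons, 333 of 351 values under an alternative kept their direction and their side of the threshold, 6 lost the call, 6 gained one and 6 turned sign. The number of members called in LXR DKO minus WT (1) fell to 0 with the filter at RPKM 5 (which leaves Kitl out), with no filter and with only the 2 genotypes compared, and was 2 with voom on whole reads, where Pde10a was added. In transgenic minus WT (0) it was 1 with no filter (Gjc1, 0.67, adjusted p = 0.0382), with quantile normalization (Kitl), without the oocyte-containing libraries (Kitl) and with voom over genes of at least 10 reads in at least 3 libraries (Gjc1). Leaving out 1 library gave 0 to 2 members in LXR DKO minus WT, 0 in transgenic minus LXR DKO and 0 to 1 in transgenic minus WT. Of the 51 tested pathway genes, 3 were called in LXR DKO minus WT (10.6% of all genes), 5 with median-of-ratios scaling and 5 with voom on whole reads, and 1 to 7 with 1 library left out. In transgenic minus LXR DKO 0 were called (0.116% of all genes), 1 with only the 2 genotypes compared, and 0 to 1 with 1 library left out. In transgenic minus WT 7 were called (11.9% of all genes), 3 with no filter, and 1 to 12 with 1 library left out (12 without WT 3, 1 without transgenic 1 or transgenic 3). The calls over all 16422 genes moved too, from 1739 to between 609 (without LXR DKO 3) and 2140 (without WT 3) in LXR DKO minus WT, and from 1949 to between 650 (without transgenic 3) and 3555 (without WT 3) in transgenic minus WT. Values that turned sign were Gja1 in transgenic minus LXR DKO without both oocyte-rich libraries (0.0016) and 3 members on leaving out 1 library. Over such fits Npr2 in LXR DKO minus WT spanned -0.15 to 0.12 (negative without WT 3, and -0.014 without LXR DKO 1), Gja1 in transgenic minus LXR DKO -0.31 to 0.0016 (positive without LXR DKO 1), and, in transgenic minus WT, Npr2 -0.047 to 0.22 and Pde5a -0.017 to 0.38 (both negative without WT 3). The cause was not tested. With the replicate number as a block, 1 member was called in LXR DKO minus WT and 0 in each other comparison, and the pathway genes called were 2, 0 and 3. Deviations of same-numbered libraries correlated between -0.293 and 0.672, above 0.1 in 3 of 9 pairs, and 3 of 9 libraries correlated best with their own number, so the number was not taken as pairing the samples. For genes of few reads, such as Nppc and Gjc1, the pseudocount of 1 compresses the difference (Gjc1 in transgenic minus WT 0.67 with it and 3.74 in voom).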
